A study of Mus musculus with 21 samples.

Results

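The genes described here are 6 members of the HSPB8-BAG3 route of chaperone-assisted autophagy and its small heat shock proteins: Hspb8, Bag3, Hspb1, Cryab, Stub1 and Bag1. They were taken by symbol from a table of 47729 genes, and Hspb8 was picked because it stood among the largest rises in bortezomib-treated Atg5-/- cells. The set was thus chosen by the counts of the bortezomib-treated Atg5-/- libraries. Every comparison of the 6 genes that includes that group is given as a description with no test. Tests between the other treatment groups still share a filter on low counts and an estimate of spread over all 12 treatment libraries. The 21 SMART-seq2 libraries, in 7 groups of 3, were made from freshly isolated mouse bone marrow HSCs (hematopoietic stem cells), gated as CD48- CD150+ within Lin- Sca-1+ Kit+ (LSK) cells. The treatment experiment holds Atg5-/- mice given bortezomib, Atg5-/- mice given DMSO, WT mice given bortezomib and WT mice given DMSO. The mice labelled Atg5-/- carried Mx1-Cre and floxed Atg5 alleles (Mx1-Cre;Atg5fl/fl), so the deletion depends on a Cre driven by an interferon-inducible promoter that is active in blood cells and other tissues. The sources used here do not give the time of Cre induction or the age and sex of the mice. Bortezomib, a drug that blocks the proteasome, was given at 10 mg/kg, and its controls received 10% DMSO; both were injected behind the eye 48 h and 24 h before the cells were taken. The reporter experiment holds untreated mice that carry RFP-EGFP-LC3, a tandem fluorescent form of the autophagosome protein LC3, sorted into RFP single positive, RFP GFP double positive and RFP GFP double negative HSCs. Since no label says whether the 3 libraries of a group came from separate animals, p-values measure only how far these samples spread, which may be technical.

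HSPB8 is a small heat shock protein that holds misfolded proteins and is bound by BAG3, a co-chaperone that also binds HSP70. With the ubiquitin ligase CHIP (encoded by Stub1) and the receptor p62 (encoded by Sqstm1), this complex passes ubiquitinated clients along microtubules to aggresomes and into autophagosomes, a route best known from muscle and from cells with a blocked proteasome. BAG1 competes with BAG3 for HSP70 and steers clients to the proteasome instead. HSPB1 and CRYAB are other small heat shock proteins, and many genes of the group are induced through heat shock factor HSF1, which binds inverted repeats of the letters GAA.

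Those repeats are the reason to show the regions around the start sites of Hspb8, Bag3 and Hspb1, the members with the largest fitted rises under bortezomib in Atg5-/- HSCs. The stretches are the RefSeq promoter windows of GRCm38.p6, written 5′ to 3′ in the direction of the gene, at chr5:116422815-116423114 on the minus strand (Hspb8), chr7:128523333-128523632 on the plus strand (Bag3) and chr5:135887669-135887968 on the plus strand (Hspb1). Capitals mark the motif GAANNTTC, a head-to-head pair of GAA units that reads the same on both strands.
Hspb8: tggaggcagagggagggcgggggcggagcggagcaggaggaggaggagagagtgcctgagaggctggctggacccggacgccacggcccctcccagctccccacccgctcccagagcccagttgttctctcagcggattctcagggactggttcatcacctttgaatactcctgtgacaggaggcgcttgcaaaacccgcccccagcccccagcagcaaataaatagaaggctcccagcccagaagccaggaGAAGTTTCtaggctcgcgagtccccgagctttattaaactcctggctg
Bag3: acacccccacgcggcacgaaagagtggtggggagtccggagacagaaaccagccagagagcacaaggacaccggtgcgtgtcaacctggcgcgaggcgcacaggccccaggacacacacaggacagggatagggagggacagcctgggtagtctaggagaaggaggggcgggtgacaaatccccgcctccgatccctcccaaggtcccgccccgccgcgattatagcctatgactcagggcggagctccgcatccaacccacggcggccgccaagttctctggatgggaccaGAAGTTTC
Hspb1: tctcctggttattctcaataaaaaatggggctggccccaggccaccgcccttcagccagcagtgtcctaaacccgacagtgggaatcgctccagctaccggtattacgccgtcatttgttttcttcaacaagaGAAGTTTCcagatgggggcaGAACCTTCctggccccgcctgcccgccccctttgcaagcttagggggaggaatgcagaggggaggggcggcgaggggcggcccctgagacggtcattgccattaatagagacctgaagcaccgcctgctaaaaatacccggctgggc

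The motif GAANNTTC was found in 4 of the 5 members that have a window (Hspb8, Bag3, Hspb1 and Stub1, not Bag1), and in 9.04% of 27025 genes with such a window. It lies at bases 3 to 10 after the start in Hspb8, at bases 43 to 50 in Bag3, and at -117 to -110 and -97 to -90 in Hspb1, counted from the start site, with negative positions before it. In Stub1, GAAGCTTC lies at -123 to -116. All start sites here are those of the RefSeq windows. For Stub1 the RefSeq start and these bases lie inside the gene positions from GENCODE given below. For Bag3 the RefSeq start lies before the GENCODE positions. The tail-to-tail pair TTCNNGAA, also the same on both strands, was found in 0 of the 5 members and in 9.6% of the genes. Hspb8, Bag3 and Hspb1 carry the same letters, GAAGTTTC, which was noticed only on reading the sequences and occurs on either strand in 1.35% of the genes. A match is a description of these letters and not a binding site, and a window without a match says nothing about HSF1.

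The libraries held 15005500 to 31481691 counts and 16095 to 18899 detected genes, so that 3 counts, the most that a count of 0 allows, come to 0.0963 to 0.186 CPM (counts scaled to library size, with trimmed mean of M-values, TMM, factors over all 21 libraries). All 6 members passed the filter on low counts in both experiments, among 16149 genes tested in the treatment experiment and 15375 in the reporter experiment. Atg5, the targeted gene (chr10:44268358-44364291), stood at 108 ± 27.3 CPM in Atg5-/- bortezomib and 109 ± 3.80 CPM in Atg5-/- DMSO libraries, against 99.2 ± 30.5 CPM in WT bortezomib and 56.0 ± 17.7 CPM in WT DMSO libraries (SD, n = 3 each). These are whole-gene counts, which include exons outside a floxed region and check nothing about the deletion, so "Atg5-/-" is used as the label of the libraries. Of the markers of the sort, Kit, Ly6a and Slamf1 were expressed in every group. Cd48, the marker sorted against, averaged 8.66 CPM in Atg5-/- bortezomib, 16.8 CPM in Atg5-/- DMSO, 38.5 CPM in WT bortezomib and 11.1 CPM in WT DMSO libraries. In these bulk samples, fewer cells of a type and less RNA per cell cannot be told apart.

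**Figure D1:**
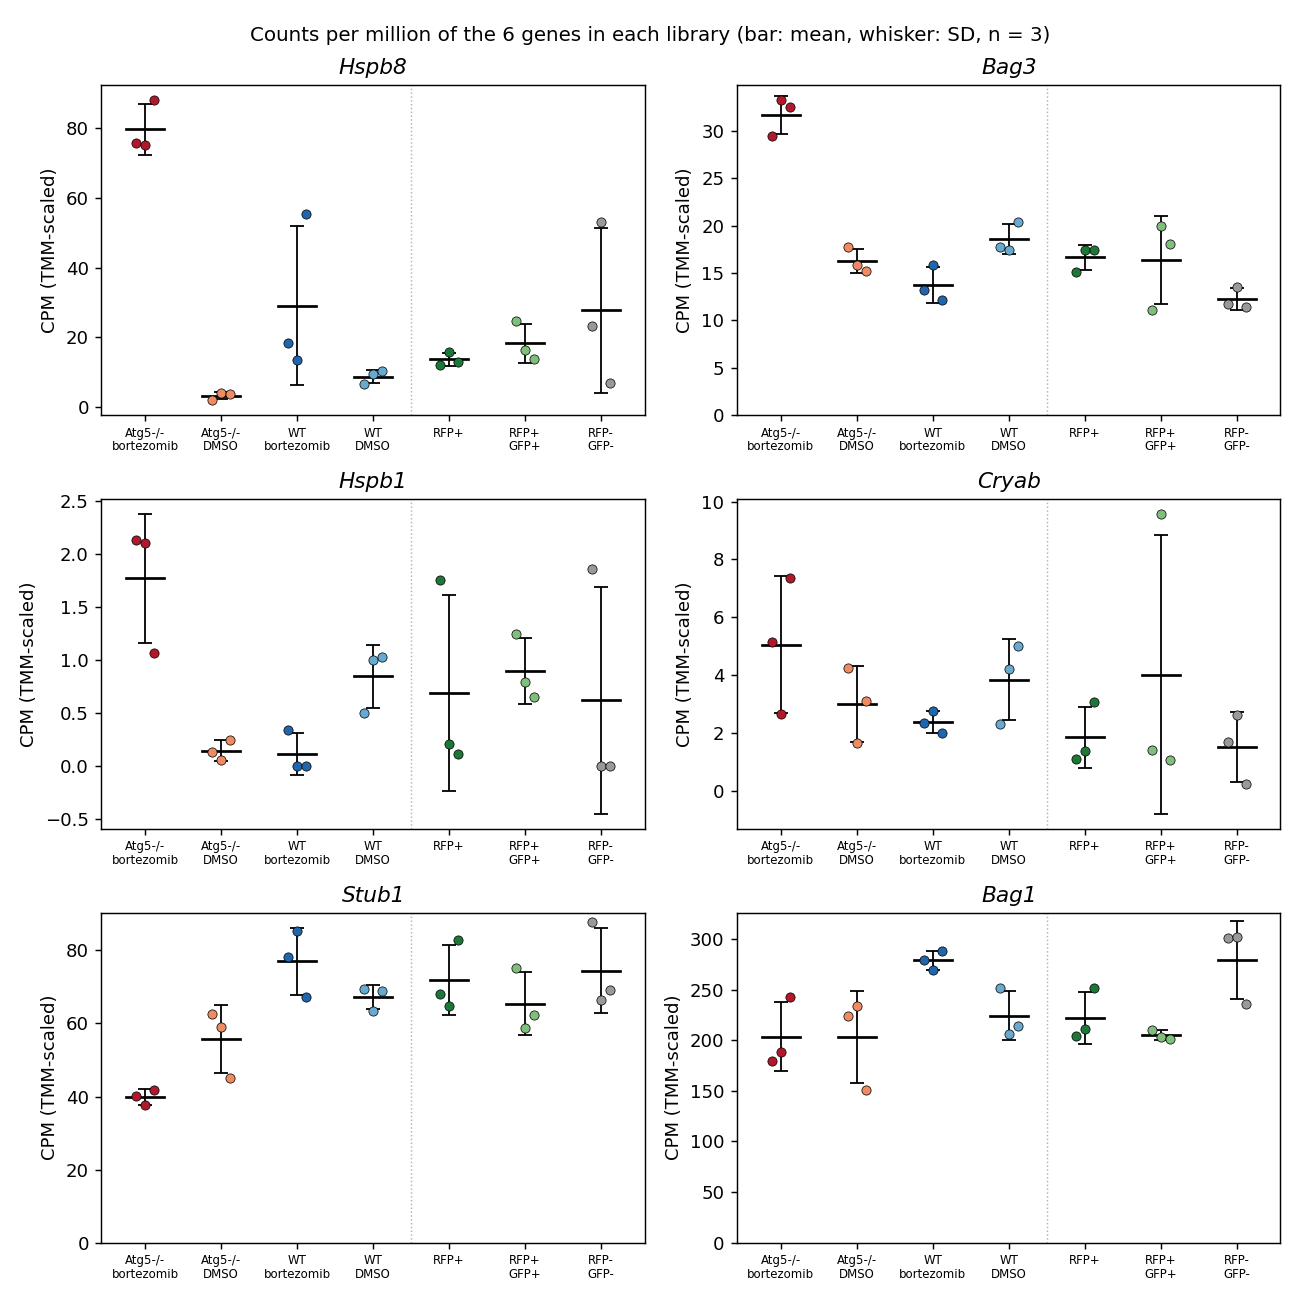
CPM (TMM-scaled) of the 6 genes in each of the 21 libraries, by group, with the treatment experiment left and the reporter experiment right of the dotted line; the long bar is the mean and the whisker the SD of 3 libraries. The 3 Atg5-/- bortezomib libraries lie above all other libraries for Hspb8 and Bag3 and below all others for Stub1, where the nearest is an Atg5-/- DMSO library at 45.1 CPM. The share of all genes that separate these libraries in this way was not computed.

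Hspb8 (ENSMUSG00000041548.4, chr5:116408491-116422864 in GRCm38, minus strand) had 75.7, 75.4 and 88.1 CPM in Atg5-/- bortezomib libraries, against 2.04, 3.97 and 3.65 CPM in Atg5-/- DMSO libraries. These groups, which chose the gene, lie far apart and do not overlap. For no comparison here was the share of all genes without overlap computed, so a lack of overlap is only described. The fitted log2 fold change was 4.64 (SE 0.47), the 64th largest of the 16149 genes tested, of which 3.63% were called in this comparison at a Benjamini-Hochberg adjusted p under 0.05. WT bortezomib libraries had 18.3, 13.6 and 55.5 CPM, against 6.61, 9.37 and 10.2 CPM in WT DMSO libraries. All 3 treated WT libraries lie above the untreated ones, and the library numbered 3 stands well above the other two. The Atg5-/- bortezomib libraries all lie above the WT bortezomib ones, with a log2 difference of 1.44 (SE 0.40) that became 2.31 without WT bortezomib 3. The drug effect in Atg5-/- minus that in WT was 2.88 (SE 0.58) on the log2 scale, and 3.74 without WT bortezomib 3.

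In WT HSCs, bortezomib against DMSO asks how the genes answer a blocked proteasome in mice with no Atg5 deletion. The rule for choosing the genes does not name this contrast, but its results were known when they were chosen. Hspb8 rose by 1.77 on the log2 scale (SE 0.41, edgeR adjusted p = 0.0115) and was higher in 3 of 3 treated libraries than in any untreated one. It was the only one of the 6 members called, where 15.5% of all genes were called and 7.97% were called higher, so the count of 1 in 6 is near the background. The size of the change rested on WT bortezomib 3: without it the log2 fold change was 0.90 (edgeR adjusted p = 0.0441). Without WT DMSO 1 it was 1.60 and no longer called (edgeR adjusted p = 0.0562). The libraries numbered 3 of WT DMSO, WT bortezomib and Atg5-/- bortezomib stood apart from the other 9 of the treatment experiment on the 3rd principal component, and without all 3 of them the log2 fold change was 1.08 (edgeR adjusted p = 0.0135).

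Bag3 (ENSMUSG00000030847.8, chr7:128523616-128546981, plus strand), whose protein holds HSPB8 and HSP70 together, had 29.4, 33.2 and 32.5 CPM in Atg5-/- bortezomib libraries, against 17.7, 15.9 and 15.2 CPM in Atg5-/- DMSO libraries. The groups do not overlap, and the fitted log2 fold change was 0.97 (SE 0.20). WT bortezomib libraries had 13.2, 15.8 and 12.2 CPM, against 17.8, 17.5 and 20.3 CPM in WT DMSO libraries. In WT the treated libraries all lie below the untreated ones, but the change was not called (log2 fold change -0.40, SE 0.20, edgeR adjusted p = 0.189), where 7.56% of all genes were called lower. The bortezomib effects in Atg5-/- and WT libraries thus differ in sign, with a fitted difference of 1.37 (SE 0.28) on the log2 scale that was not tested. Genes called for such a difference made up 9.05% of all genes tested. Bag3 overlaps 612 bases of 2610306O10Rik, a gene of unsettled type on the same strand, so reads of the overlap could be assigned to either.

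Hspb1 (ENSMUSG00000004951.10, chr5:135887919-135889563, plus strand), the HSP27 gene, was close to the limit of detection. It had 47, 43 and 29 counts in Atg5-/- bortezomib libraries, against 3, 1 and 4 counts in Atg5-/- DMSO libraries, or 2.13, 2.11 and 1.06 CPM against 0.133, 0.0516 and 0.248 CPM. WT bortezomib libraries had 8, 0 and 0 counts, against 10, 23 and 32 counts in WT DMSO libraries, or 0.337, 0 and 0 CPM against 0.501, 1.00 and 1.03 CPM. In CPM the Atg5-/- bortezomib libraries lie above every library of the other 3 treatment groups, though Atg5-/- bortezomib 3 barely exceeds WT DMSO 3, and the WT bortezomib libraries lie below the WT DMSO ones. The WT change was not called (-2.76 on the log2 scale, SE 1.22, edgeR adjusted p = 0.137). Without WT bortezomib 1, the single treated library with any counts, it was called at -7.21 (edgeR adjusted p = 0.0406). A count of 0 allows up to 0.157 CPM in WT bortezomib 2 and 0.144 CPM in WT bortezomib 3. The fitted difference between the bortezomib effects, 6.36 on the log2 scale (SE 1.75), rests on these low counts and became 10.8 without WT bortezomib 1.

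Cryab (ENSMUSG00000032060.9, chr9:50751325-50756636, plus strand), the αB-crystallin gene, had 5.13, 2.65 and 7.38 CPM in Atg5-/- bortezomib libraries, against 4.26, 1.65 and 3.10 CPM in Atg5-/- DMSO libraries. The groups overlap, and the fitted log2 fold change was 0.75 (SE 0.49). WT bortezomib libraries had 2.36, 2.77 and 2.02 CPM, against 2.30, 4.23 and 5.01 CPM in WT DMSO libraries (log2 fold change -0.66, SE 0.49, edgeR adjusted p = 0.400). Cryab was thus not shown to change in WT, and the treated and untreated libraries overlap there too. It shares 1030 bases with Hspb2, another small heat shock gene on the opposite strand, and the sources used here do not give the strand setting of the counting, so their reads cannot be told apart. Hspb2 itself averaged 0.999 ± 1.03 CPM in Atg5-/- bortezomib and 0.630 ± 0.692 CPM in Atg5-/- DMSO libraries (SD, n = 3 each).

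Stub1 (ENSMUSG00000039615.8, chr17:25830505-25833404, minus strand), which encodes the ubiquitin ligase CHIP, ran the other way. It had 40.1, 37.6 and 41.8 CPM in Atg5-/- bortezomib libraries, against 62.6, 59.2 and 45.1 CPM in Atg5-/- DMSO libraries. The treated libraries all lie below the untreated ones, though Atg5-/- DMSO 3 is close to them, and the fitted log2 fold change was -0.47 (SE 0.17). WT bortezomib libraries had 78.3, 85.4 and 67.3 CPM, against 69.4, 63.4 and 69.0 CPM in WT DMSO libraries, which overlap (log2 fold change 0.23, SE 0.17, edgeR adjusted p = 0.391). Between genotypes under bortezomib the fitted log2 difference was -0.96 (SE 0.17), in a comparison where 32.4% of all genes were called. Stub1 lies within the antisense gene Gm26694 over 2900 bases and shares 1339 bases with the antisense gene Jmjd8, whose reads cannot be told apart from its own without strand.

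Bag1 (ENSMUSG00000028416.11, chr4:40936398-40948294, minus strand), the co-chaperone that leads HSP70 clients to the proteasome, had 179, 189 and 243 CPM in Atg5-/- bortezomib libraries, against 224, 233 and 151 CPM in Atg5-/- DMSO libraries. These ranges overlap almost fully, and the fitted log2 fold change of 0.01 (SE 0.18) turned to -0.16 without Atg5-/- DMSO 3 and to -0.12 without Atg5-/- bortezomib 3. WT bortezomib libraries had 279, 269 and 289 CPM, against 252, 207 and 214 CPM in WT DMSO libraries. All treated WT libraries lie above the untreated ones, but the change was not called (log2 fold change 0.35, SE 0.18, edgeR adjusted p = 0.206).

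**Figure D2:**
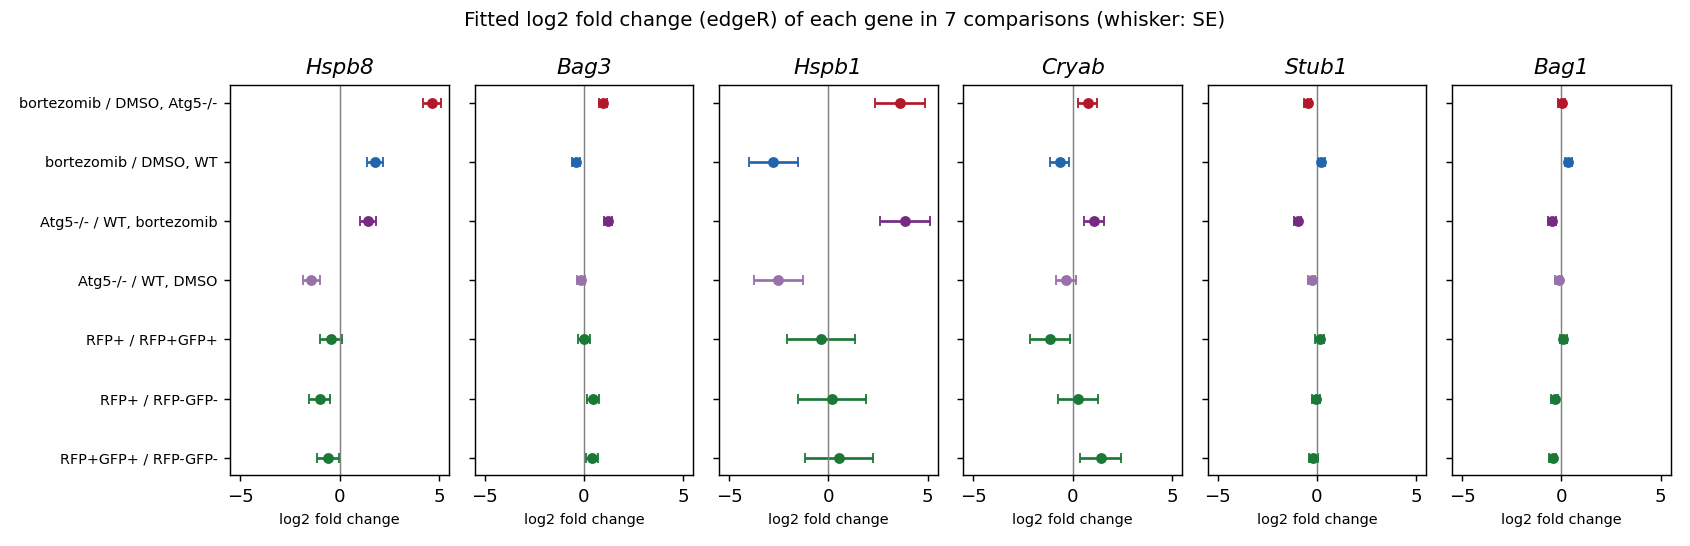
Fitted log2 fold changes (x axis, edgeR; whisker: SE) of the 6 genes in 7 comparisons (rows, group named first over group named second). Hspb8 has a log2 fold change of 4.64 for bortezomib in Atg5-/- and 1.77 in WT, while Bag3 has 0.97 in Atg5-/- and -0.40 in WT.

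Set per length of the joined exons (GENCODE M21), the order of the genes changed with treatment. In Atg5-/- bortezomib libraries Bag1 led at 151 ± 25.4 CPM per kb, Hspb8 came next at 40.9 ± 3.73, and Stub1, Bag3, Cryab and Hspb1 followed at 15.6 ± 0.830, 12.4 ± 0.784, 3.42 ± 1.60 and 1.72 ± 0.592 CPM per kb. In Atg5-/- DMSO libraries Hspb8 was 5th at 1.65 ± 0.530 CPM per kb, behind Cryab at 2.03 ± 0.885, from which it did not differ beyond the spread (SD, n = 3 each). In WT bortezomib libraries Hspb8 was 3rd at 14.9 ± 11.8 CPM per kb, and in WT DMSO libraries it was 4th at 4.48 ± 0.970. Bag1 was 1st and Hspb1 last in all 7 groups.

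The balance of BAG3 against BAG1 has been used elsewhere as a reading of the shift from proteasomal to autophagic disposal, so the ratio of their counts was formed within each library. Bag3 over Bag1 was 0.164, 0.176 and 0.134 in Atg5-/- bortezomib libraries, against 0.0790, 0.0680 and 0.101 in Atg5-/- DMSO libraries. It was 0.0471, 0.0588 and 0.0421 in WT bortezomib libraries, against 0.0705, 0.0846 and 0.0949 in WT DMSO libraries. The ratio was thus higher in all treated than in all untreated Atg5-/- libraries and lower in all treated than in all untreated WT libraries, with no overlap in either; it is given without a test. Hspb8 over Bag3 was 2.57, 2.27 and 2.71 in Atg5-/- bortezomib libraries, against 0.115, 0.250 and 0.240 in Atg5-/- DMSO libraries. In WT bortezomib libraries it was 1.39, 0.861 and 4.57, against 0.372, 0.536 and 0.503 in WT DMSO libraries, so that here both genotypes lie higher with bortezomib.

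**Figure D3:**
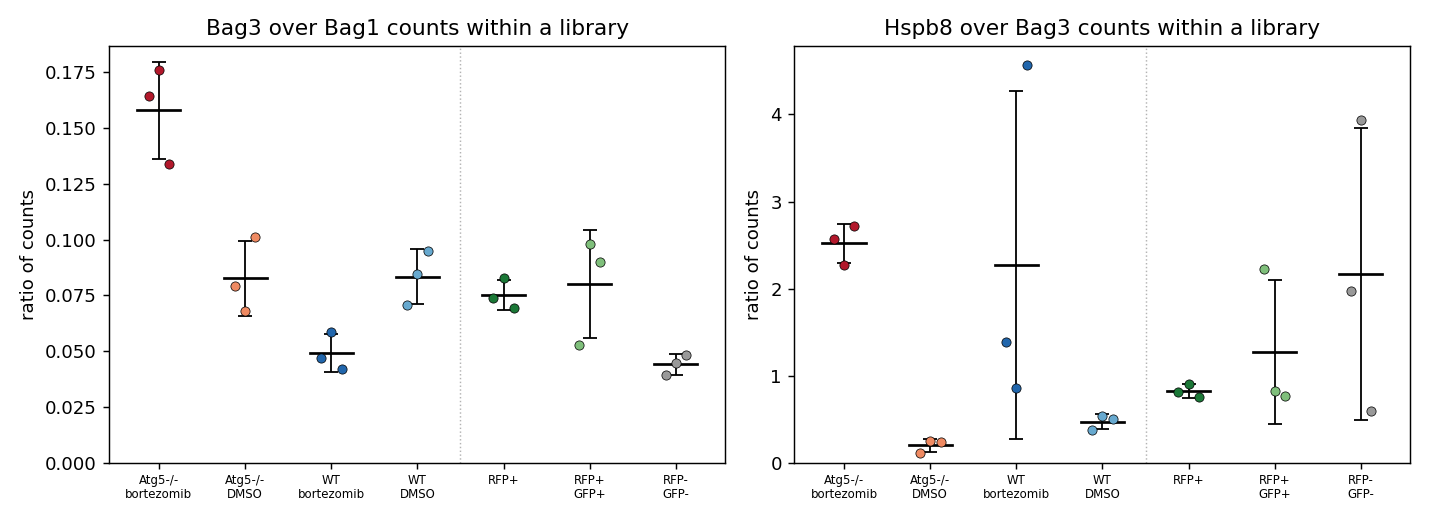
Ratio of counts within each library for Bag3 over Bag1 (left) and Hspb8 over Bag3 (right), by group; bar, mean; whisker, SD of 3 libraries. Bag3 over Bag1 averages 0.158 in Atg5-/- bortezomib, 0.0827 in Atg5-/- DMSO, 0.0493 in WT bortezomib and 0.0833 in WT DMSO libraries.

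Without the drug, Atg5-/- DMSO against WT DMSO asks what the genotype alone does. None of the 6 members was called, nor was any of the 16149 genes tested with edgeR (0% called), although 1454 genes had an unadjusted p under 0.05 and DESeq2 called 152. Hspb8 had 2.04, 3.97 and 3.65 CPM in Atg5-/- DMSO libraries, against 6.61, 9.37 and 10.2 CPM in WT DMSO libraries, so that it lies lower in all 3 Atg5-/- libraries. Its difference was -1.43 on the log2 scale (SE 0.43, edgeR adjusted p = 0.314). It was called once the filter on low counts was dropped (-1.44, edgeR adjusted p = 7.46e-05), where 0.757% of all genes were called. The other members had log2 fold changes of -0.17 (Bag3), -2.51 (Hspb1, on 3, 1 and 4 counts against 10, 23 and 32), -0.34 (Cryab), -0.26 (Stub1) and -0.13 (Bag1). The Atg5-/- DMSO libraries are also the low side of the contrast that chose Hspb8, so the p-values of Hspb8 here are no independent support. WT DMSO is the control of the WT drug comparison too. Xist made up 0.234% to 0.987% of Xist plus Ddx3y counts in Atg5-/- DMSO libraries and 60.0% to 99.2% in WT DMSO libraries, so genotype and sex cannot be told apart in this comparison. The drug comparisons are uneven too, with 46.4%, 31.8% and 90.3% in WT bortezomib and 100%, 0% and 3.51% in Atg5-/- bortezomib libraries. With the Xist share as a covariate, the genes called fell from 15.5% to 10.1% for bortezomib in WT. They fell from 9.05% to 1.71% for the difference between the bortezomib effects.

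The reporter experiment compares untreated HSCs by LC3 fluorescence, where RFP without GFP is taken to mark LC3 in acid lysosomes because GFP is quenched there. Its main fits did not pair libraries by number, although the Xist share was high in the library numbered 2 alone of each reporter group. A shared source of same-numbered libraries was not tested. Hspb8 had 12.2, 15.8 and 13.1 CPM in RFP single positive, 24.6, 16.3 and 13.9 CPM in double positive and 23.2, 53.2 and 6.77 CPM in double negative libraries. All 3 groups overlap, and the double negative libraries hold both the lowest and the highest value. None of the 6 members was called with edgeR for RFP single positive against double positive (0% of 15375 genes called), RFP single positive against double negative (0%) or double positive against double negative (0.0065%); 209, 1160 and 1315 genes had an unadjusted p under 0.05. Hspb8 had log2 fold changes of -0.43, -1.01 and -0.59 in these comparisons (edgeR adjusted p = 1.00, 0.677 and 0.798), and the last turned to 0.30 without double negative 2.

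Bag3 had 15.1, 17.4 and 17.4 CPM in RFP single positive, 11.1, 19.9 and 18.1 CPM in double positive and 11.8, 13.5 and 11.4 CPM in double negative libraries. The single positive libraries all lie above the double negative ones, but the difference was not called (log2 fold change 0.45, SE 0.30, edgeR adjusted p = 0.708). Bag1 had 211, 203 and 201 CPM in double positive libraries, against 301, 303 and 235 CPM in double negative libraries, which do not overlap either (log2 fold change -0.44, SE 0.17, edgeR adjusted p = 0.558). Bag3 over Bag1 averaged 0.0752 ± 0.00682 in single positive, 0.0801 ± 0.0242 in double positive and 0.0441 ± 0.00468 in double negative libraries (SD, n = 3 each). Stub1 averaged 71.9 ± 9.53 CPM in single positive, 65.3 ± 8.61 in double positive and 74.5 ± 11.7 in double negative libraries, and Hspb1 ranged from 0 to 36 counts. Cryab averaged 1.85 CPM in single positive, 4.02 CPM in double positive and 1.52 CPM in double negative libraries, with 9.58 CPM in double positive 2 against 1.41 and 1.08 CPM in the other two of that group.

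Partner genes of the route were followed through 6 lists of 65 genes, of which 57 were tested in the treatment experiment. The lists were chosen with earlier results of these data known, so the p-values of partner genes are no independent support. In Atg5-/- HSCs, bortezomib raised 3 and lowered 2 of the 57, where 2.02% of all genes were called higher and 1.61% lower (median log2 fold change of the list 0.07, of all genes 0.00). Sqstm1, the p62 cargo receptor that BAG3 delivers to, averaged 1146 ± 399 CPM in Atg5-/- bortezomib and 323 ± 52.8 CPM in Atg5-/- DMSO libraries (SD, n = 3 each), a log2 fold change of 1.84 (edgeR adjusted p = 0.000861). Ufd1l, listed in RefSeq as Ufd1 and a cofactor of the p97 segregase, rose by 1.26 (SE 0.20, edgeR adjusted p = 0.00255). Dnajb2, a J-domain protein that passes ubiquitinated clients on for degradation, rose by 1.05 (edgeR adjusted p = 0.0208), a call lost without Atg5-/- DMSO 1 (0.0855), Atg5-/- DMSO 2 (0.106) or Atg5-/- bortezomib 2 (0.0713). Hspbp1, a nucleotide exchange factor of HSP70 that also inhibits CHIP, fell to 79.5 ± 29.4 CPM in Atg5-/- bortezomib, against 169 ± 17.3 CPM in Atg5-/- DMSO libraries (log2 fold change -1.08, SE 0.21, edgeR adjusted p = 0.00974). Synpo2, which couples BAG3 to the formation of phagophores in muscle, fell by 2.11 on the log2 scale (edgeR adjusted p = 0.0393), a call lost in 10 of 19 alternatives. Without Atg5-/- bortezomib 2 the count over the lists was 2 higher and 1 lower, where 1.42% of all genes were called, and without the 3 libraries numbered 3 it was 5 higher and 3 lower, where 11.6% were called.

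In WT HSCs, bortezomib raised 8 and lowered 3 of the 57 partner genes, beside 7.97% and 7.56% of all genes (median of the list 0.17, of all genes -0.04). Of these, Synpo2 was also called, and also lower, in Atg5-/- HSCs. Dynll1, a dynein light chain of the motor that BAG3 uses to carry cargo, averaged 583 ± 81.2 CPM in WT bortezomib and 162 ± 16.0 CPM in WT DMSO libraries (SD, n = 3 each), a log2 fold change of 1.88 (edgeR adjusted p = 0.00228), and it kept its call in all 19 alternatives. Hspa8, the constitutive HSP70, averaged 1285 ± 177 CPM in WT bortezomib and 770.1 ± 35.4 CPM in WT DMSO libraries (log2 fold change 0.77, edgeR adjusted p = 0.0121). The exchange factors Hspa4 and Bag2, the HSP70 relative Hspa14, the ubiquitin-conjugating enzymes Ube2d3 and Ube2n, and the dynein light chain Dynll2 rose by 0.70 to 0.91. Bag2 lost its call in 6 of 19 alternatives, among them the Xist share as a covariate, and the others just named in 2 or 3. The receptors Nbr1 and Tax1bp1 fell by 1.19 and 0.65 on the log2 scale, and Synpo2 fell by 2.22. The count moved with single libraries, as did the share of all genes called. It was 4 higher and 1 lower without WT DMSO 1 (5.8% of all genes called), 2 and 0 without WT DMSO 2 (4.32%), 1 and 0 without WT bortezomib 1 (3.47%), and 14 and 3 without Atg5-/- bortezomib 3 (19.2%).

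The tested genes of the heat shock factor list and the inducible chaperones below were not called for bortezomib. Those chaperones were named after their values were seen, while the chaperone genes Hspa8 and Hspa4 were called higher in WT HSCs. The activity of HSF1 was not tested. None of the 3 tested genes of that list, which include Hsbp1, a regulator of HSF1, was called for bortezomib in either genotype. Hsf1 had log2 fold changes of -0.02 in Atg5-/- (edgeR adjusted p = 0.985) and -0.16 in WT HSCs (edgeR adjusted p = 0.646). Dnajb1, a classical HSF1 target, averaged 210 CPM in Atg5-/- bortezomib and 191 CPM in Atg5-/- DMSO libraries (edgeR adjusted p = 0.695). It averaged 249.6 CPM in WT bortezomib and 198 CPM in WT DMSO libraries (edgeR adjusted p = 0.0962). The inducible HSP70 genes Hspa1a and Hspa1b, near-identical copies between which reads may be split, averaged 0.102 to 2.56 CPM over the 4 treatment groups and were not called.

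**Figure D4:**
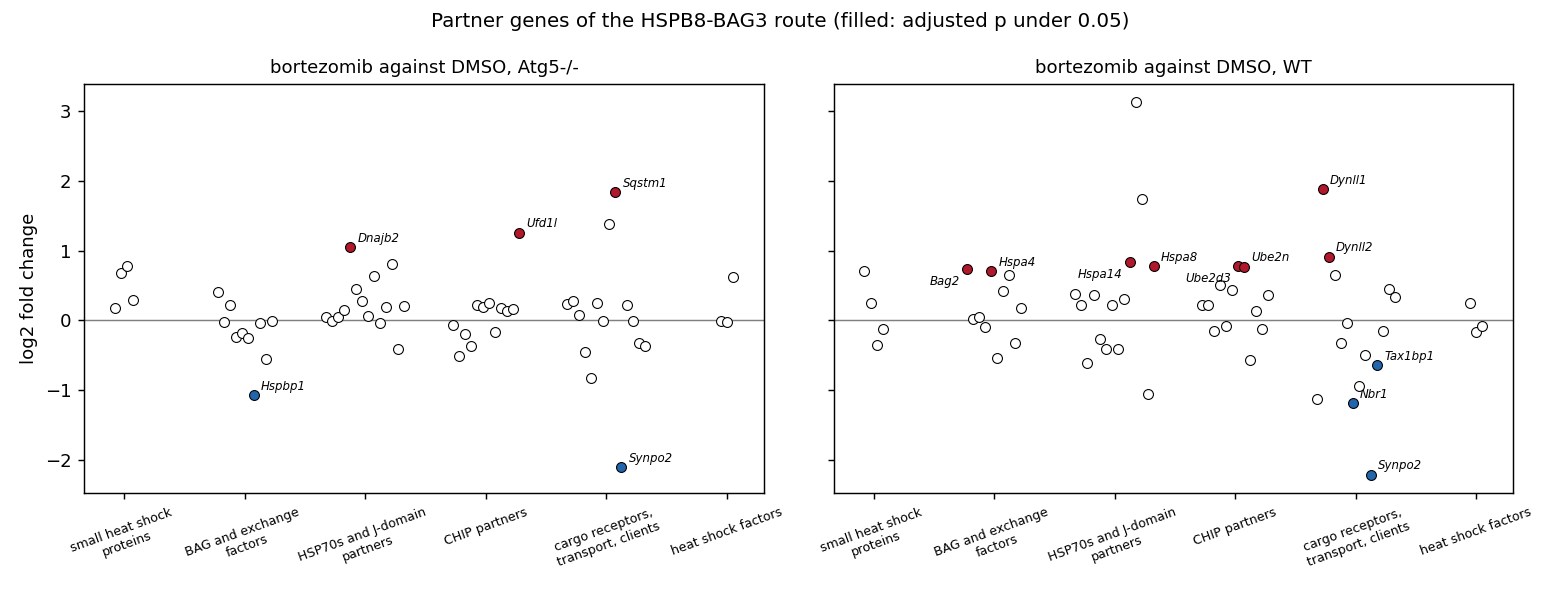
Log2 fold changes (y axis) of the tested partner genes in 6 lists (x axis) for bortezomib against DMSO in Atg5-/- (left) and WT HSCs (right); filled points were called by edgeR at an adjusted p under 0.05. Sqstm1 (1.84) leads the rises in Atg5-/- and Dynll1 (1.88) the called rises in WT.

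Between genotypes under bortezomib, 11 of the 57 partner genes were higher and 13 lower in Atg5-/- than in WT libraries, beside 17.2% and 15.3% of all genes (median of the list -0.12, of all genes 0.08). Among 14 tested cargo receptors and carriers, 7 were higher and 3 lower. Sqstm1, Optn (another ubiquitin-binding autophagy receptor) and Nbr1 were higher by 2.37, 1.93 and 1.45 on the log2 scale (edgeR adjusted p = 7.94e-05, 0.00223 and 0.00144), and Dynll1 was lower (-1.59, edgeR adjusted p = 0.000574). Among 10 BAG family members and other exchange factors, 0 were higher and 3 lower. Hspbp1 had a log2 fold change of -1.44 (edgeR adjusted p = 0.00025), and the calls of Bag2 (-0.60) and Hspa4 (-0.48) were lost in 10 and 12 of 19 alternatives, with edgeR adjusted p = 0.0897 and 0.192 without WT bortezomib 1. Among 12 CHIP partners, 2 were higher and 4 lower, among them Ube2n (-1.09), Ube2d3 (-0.79) and the HSP90 co-chaperone Stip1 (-0.71). Among 14 tested HSP70s and J-domain proteins, Dnajb2 (1.08) and Dnajb4 (0.53) were higher and Hspa14 (-0.99) was lower. Hspb11 (-0.78, edgeR adjusted p = 0.0399) was the only one of 4 tested small heat shock genes of the list to be called, and it was lower. Among 3 tested genes of the heat shock factor list, Hsbp1, a negative regulator of HSF1, was lower (-0.59, edgeR adjusted p = 0.0369). The calls of Hsbp1 and Dnajb4 were each lost in 5 of 19 alternatives, and that of Hspb11 in 4. The count over the lists was 8 higher and 7 lower without WT bortezomib 1, 8 and 8 without WT bortezomib 2, 9 and 7 without Atg5-/- bortezomib 1, and 7 and 8 without Atg5-/- bortezomib 2, where 21.1%, 24.1%, 22.6% and 22.1% of all genes were called. A difference between the 2 bortezomib effects was called for 4 genes higher and 5 lower in Atg5-/-, beside 4.35% and 4.71% of all genes. In the other comparisons (genotype without the drug and the 3 pairs of reporter groups), 0 of the tested partner genes were called with edgeR as described, although 1 was called for genotype without the filter on low counts (0.757% of all genes called) and 1 by DESeq2 (0.941%).

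The summed levels of markers of other cells also varied between libraries. The summed level of 10 macrophage markers was 156, 137 and 287 CPM in WT bortezomib libraries, against 108, 126 and 88.8 CPM in WT DMSO libraries, and the highest sum belongs to WT bortezomib 3, the library with the most Hspb8 in that group. In WT bortezomib against WT DMSO, 2 of the 10 markers were called higher (Cd68 and Cd5l) and 0 lower, and 1 marker was at 0 in WT DMSO 3 alone of these libraries. The sum was 91.2, 246 and 57.6 CPM in double negative libraries, and again the highest sum belongs to the library with the most Hspb8, double negative 2. The same held for double positive 1, Atg5-/- DMSO 2 and Atg5-/- bortezomib 3 in their groups. It did not hold in WT DMSO or RFP single positive libraries. There the library with the most Hspb8 had the lowest sum of its group, 88.8 CPM in WT DMSO 3 and 47.4 CPM in RFP single positive 2. In Atg5-/- bortezomib libraries, the highest in Hspb8 of all, the sum was 106 to 116 CPM, against 63.9 to 96.3 CPM in Atg5-/- DMSO libraries, with 1 marker (Cd68) called higher. The median log2 fold change of the 10 markers was -0.31 in this comparison, so the sum rose while the median of the markers fell. In WT bortezomib against WT DMSO the median was 0.61. Neutrophil markers (10 genes, 7 tested) were also highest of their group in WT bortezomib 3 (54.9 CPM) and double negative 2 (61.1 CPM). The library with the most Hspb8 also had the highest neutrophil sum in WT DMSO (40.7 CPM), double positive (34.7 CPM) and Atg5-/- bortezomib (24.8 CPM). This did not hold in Atg5-/- DMSO or RFP single positive libraries. Of the neutrophil markers, 0 were called for bortezomib in either genotype. The summed level of 8 T and NK cell markers was 173, 143 and 211 CPM in WT bortezomib libraries, against 85.7, 88.5 and 92.7 CPM in WT DMSO libraries, with no overlap. Most of it was Nkg7, the only one of 3 tested to be called (log2 fold change 1.17, edgeR adjusted p = 0.0167), while Cd3d, Cd3e, Cd3g, Cd8a and Ncr1 were at 0 in all WT bortezomib libraries. Erythroid markers (10 genes) summed to 969 to 1165 CPM in Atg5-/- bortezomib libraries, against 1624 to 2040 CPM in Atg5-/- DMSO libraries, with no overlap and 2 of 9 tested called lower (Hbb-bt and Car2). The median log2 fold change of the 9 was 0.29, so the lower sum does not stand for the list as a whole. Of 9 tested megakaryocyte markers, 1 was called higher and 2 lower for bortezomib in Atg5-/- and 0 higher and 1 lower in WT libraries, and of 3 tested B cell markers 0 were called in either. The part of these cells in the level of Hspb8 was not tested.

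**Figure D5:**
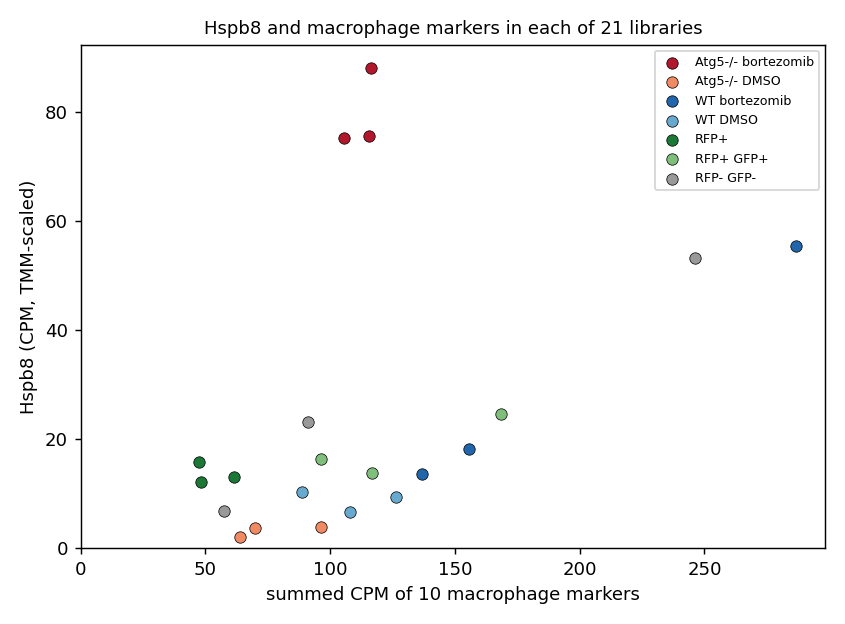
Hspb8 (CPM, TMM-scaled, y axis) against the summed CPM of 10 macrophage markers (x axis) in each of the 21 libraries, coloured by group. WT bortezomib 3 (287 CPM of markers, 55.5 CPM of Hspb8) and double negative 2 (246 and 53.2 CPM) lie to the right, while the Atg5-/- bortezomib libraries lie highest at 106 to 116 CPM of markers.

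Muscle and vessel cells, where small heat shock genes are abundant, were checked likewise. Muscle markers summed to 5.04 to 7.50 CPM in Atg5-/- bortezomib and 4.64 to 7.19 CPM in Atg5-/- DMSO libraries, with Des and Mb at 0 in every library. Endothelial and stromal markers summed to 130 to 171 CPM in Atg5-/- bortezomib, against 96.4 to 167 CPM in Atg5-/- DMSO libraries, of which 0 of 6 tested were called. They summed to 45.6 to 73.0 CPM in WT bortezomib, against 81.8 to 123 CPM in WT DMSO libraries, with 2 of 6 tested called lower (Pecam1 and Kdr, which HSCs can also express) and 0 higher. Cdh5 was at 0 in all groups but Atg5-/- bortezomib, where it averaged 0.354 CPM. Between genotypes under bortezomib, 4 of the 6 were called higher in Atg5-/- libraries, and 5 of the 10 macrophage markers lower. Of the sort markers, Kit and Slamf1 fell by 1.13 and 0.67 on the log2 scale in WT bortezomib against WT DMSO libraries and Cd48 rose by 1.83 (edgeR adjusted p = 0.00367, 0.0269 and 0.00723). The part of these shifts in the results above was not tested.

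To place the patterns of Hspb8 and Bag3 among all genes, each gene's log2 CPM was centred on its own mean over the 21 libraries, and the 5 genes with the smallest root mean square difference were taken from 11464 genes. For Hspb8 these were Gm27252 (0.75), Pir (0.82), Lgals3 (0.85), Mt1 (0.85) and Hes1 (0.90), where the median over all genes was 1.54. Pir, an iron-binding nuclear protein, averaged 34.5 ± 1.86 CPM in Atg5-/- bortezomib and 2.93 ± 0.849 CPM in Atg5-/- DMSO libraries, and 9.57 ± 1.31 CPM in WT bortezomib and 3.53 ± 2.05 CPM in WT DMSO libraries (SD, n = 3 each). Mt1, a metal-binding metallothionein, averaged 47.3 ± 23.5 CPM in Atg5-/- bortezomib and 7.22 ± 2.72 CPM in Atg5-/- DMSO libraries, and 46.9 ± 5.81 CPM in WT bortezomib and 12.3 ± 1.62 CPM in WT DMSO libraries. Mt1 thus had like levels in both treated groups, where Hspb8 was higher in Atg5-/-. For Bag3 they included Rnf31 (0.23), Flywch1 (0.24), Tnip2 (0.25) and Ubxn4 (0.26), where the median was 0.61. Ubxn4, a partner of p97 at the endoplasmic reticulum, averaged 199 ± 34.3 CPM in Atg5-/- bortezomib and 111 ± 5.06 CPM in Atg5-/- DMSO libraries, and 87.8 ± 10.6 CPM in WT bortezomib and 113 ± 26.2 CPM in WT DMSO libraries.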

How the data were processed

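The authors deposited raw read counts per gene for 21 libraries. Per the submitters' processing notes, Bowtie 1.0.0, STAR 2.6.1 and HTSeq 0.7.1 were used, with the builds GRCm38.p4 and GRCh38 named without a role. The sources used here do not give the annotation release or strand setting. Groups came from the labels, and 0 columns had no sample.

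The tests used edgeR 4.0.16 under R 4.3.3 (filterByExpr, TMM, quasi-likelihood test, 1 fit per experiment with a mean per group, Benjamini-Hochberg adjustment over all genes, called under 0.05). Each SE was derived from the log2 fold change and its F statistic. The members and lists were chosen with earlier results of these data known. Named list genes are up to 4 called genes of smallest p per list and comparison, or the gene of highest mean where none was called, in part; Hsf1, Dnajb1, Hspa1a, Hspa1b, Hspb2 and Tax1bp1 were named after their values were seen. Log2 CPM for likeness used a prior count of 2 and genes of at least 5 CPM in a group. Of the genes this rule gives, 1 is not reported here. Intervals from 3 counts cover counting error only.

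The alternatives were relative log expression size factors, DESeq2 1.42.0, no filter, only the groups compared, a replicate block, the Xist share as a covariate, and omitting each library or the 3 libraries numbered 3. Duplicates were looked for among libraries of the same group, and none was found; pairs across groups were not compared. Same-numbered libraries correlated in their deviations at -0.03 to 0.20 (treatment) and -0.01 to 0.16 (reporter), with medians of 0.038 and 0.092, against -0.023 and -0.034 for libraries of different numbers. Not every pair exceeded 0.1, so the main fits did not pair samples by number, but this rule is no test of pairing. In each reporter group the Xist share was high in library 2 alone. In single positive, double positive and double negative order, it was 99.9%, 97.4% and 88.1% for number 2. It was 0%, 0% and 10.2% for number 1, and 5.45%, 0.782% and 0% for number 3. A shared source of same-numbered reporter libraries was not tested. With the replicate block, 0 members were called in the reporter comparisons. Sequences are from RefSeq and gene positions from GENCODE M21. Figures were drawn with matplotlib 3.10.9.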

Additional observations from a re-analysis of the deposited data

Results flagged for a closer look

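The effect of bortezomib (against DMSO) was set between genotypes as Atg5-/- minus WT on the log2 scale. For 2 members every treated Atg5-/- library lies above and every treated WT library lies below its controls: Bag3 with 1.37 and Hspb1 with 6.36. Hspb1 had only 8, 0 and 0 counts in WT bortezomib libraries. The share of all genes that meet this rule was not computed, so the count of 2 has no background to be set against. The differences of Bag3 and Hspb1 were not tested, because the Atg5-/- bortezomib libraries took part in choosing the genes. The partner lists were also chosen with earlier results of these data known, so the p-values that follow are no independent support. Among the partner genes, the edgeR interaction term was called for Sqstm1 (2.34, adjusted p = 0.00384) and Hspbp1 (-1.50, adjusted p = 0.0105), and both calls held in all 18 alternatives. It was also called for Optn (2.33), Dnajb2 (1.32), Dnajb4 (0.86), Ube2n (-0.94), Hspa4 (-0.88), Dynll1 (-1.61) and Ywhaz (-0.70), each of which lost its call without at least 1 library and with the Xist share as a covariate.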

How the results depend on the processing

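Of the members, only Hspb8 was called in WT bortezomib against WT DMSO. With each library left out in turn, 0 to 2 members were called: 0 without WT DMSO 1, where 5.8% of all genes were called, and 2 without WT bortezomib 1, where 3.47% were. With the replicate block the log2 fold change of Hspb8 was 1.63 (edgeR adjusted p = 0.0075). The main fits did not pair samples by number. Only 3 of 18 same-number pairs of the treatment experiment correlated over 0.1, but this cut is no test of pairing. In Atg5-/- DMSO against WT DMSO, 1 member (Hspb8) was called without the filter on low counts, where 0.757% of all genes were called. Its p-value there is no independent support, since the Atg5-/- DMSO libraries took part in choosing it. With the replicate block 1 partner gene was called, where 0.142% of all genes were. Hspb8 in Atg5-/- bortezomib against WT bortezomib ranged from 1.10 to 2.31 with a library left out and was 2.20 without the 3 libraries numbered 3; its difference between the bortezomib effects ranged from 2.54 to 3.74 and was 3.50. Signs turned with a library left out for Bag1 in Atg5-/- DMSO against WT DMSO (-0.24 to 0.043) and in Atg5-/- bortezomib against Atg5-/- DMSO (-0.16 to 0.12; -0.12 without the 3 libraries). They turned in RFP single positive against double positive for Bag3 (-0.18 to 0.19), Hspb1 (-2.49 to 0.12) and Cryab (-1.69 to 0.56). They turned in RFP single positive against double negative for Hspb1 (-1.94 to 6.82), Cryab (-0.28 to 0.94) and Stub1 (-0.15 to 0.078). They turned in double positive against double negative for Hspb8 (-1.05 to 0.30), Hspb1 (-0.031 to 7.20) and Cryab (-0.27 to 2.06). None of these was called, and the cause was not tested. For partner genes in WT bortezomib against WT DMSO, DESeq2 called 14 higher and 6 lower (21.6% of all genes called), and 13 and 7 were called without the 3 libraries (24.1%). Hspb1 had at most 47 counts in a library.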
